A study of Mus musculus with 2 samples.

Results

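Glutathione transferases and the genes of the Nrf2 defence were read in 2 liver cell samples from mice. The genes were chosen by name from the array design: the cytosolic and mitochondrial glutathione transferases (Gst), the microsomal ones (Mgst), the glutathione peroxidases (Gpx), and 13 named genes of the Nrf2 pathway and of antioxidant defence. They came to 44 genes, called members here, with 64 probes, of 30153 gene names on the design. One sample was mature hepatocytes (MHs) of healthy Sox9-EGFP mice, in which a green fluorescent protein marks cells that express Sox9, purified by Percoll gradient centrifugation. The other was Sox9+EpCAM- hepatocytes, sorted as GFP+EpCAM- cells from Sox9-EGFP mice fed with DDC, a porphyrin-inducing compound that injures the liver chronically and drives a ductular reaction. Both livers were digested by two-step collagenase perfusion. The labels call both samples male, and the age and number of the mice and the weeks of DDC for these arrays are not given in the sources used here. Each RNA was hybridised to 1 Agilent array with probes of 60 bases, so each group has 1 array, no value has a spread between mice, and no test was possible.

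Glutathione transferases couple the tripeptide glutathione to reactive compounds, and in the liver they clear drug metabolites and products of lipid peroxidation. The transcription factor Nrf2, encoded by Nfe2l2, is held in the cytoplasm and sent for degradation by Keap1. When electrophiles or oxidants modify Keap1, Nrf2 enters the nucleus, pairs with a small Maf protein and binds antioxidant response elements upstream of many of these genes.

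The genes are given in 2 groups whose values overlapped. The measured log2 differences ran from -2.88 to -0.34 for Gst genes and from -1.74 to 2.65 for the others. Every Gst gene measured on both arrays, 18 of 18, was lower in Sox9+EpCAM- cells than in MHs, beside 59.9% of all genes. Their median log2 difference was -1.36, although Gstp1 and Gstp2 were on the other side of 0 under quantile normalization. All 10 hepatocyte markers were lower too, with a median of -1.42. The other members lay around the level of all genes, with a median of -0.25 over the 20 measured (6 higher and 14 lower, or 11 and 9 under scaling to Gapdh). Among them were the higher genes Srxn1 (6.28-fold), Mgst2 (at least 4.15-fold) and Txnrd1 (2-fold). Mgst2 was below 4-fold under normexp background correction, quantile normalization and the deposited table. A list of other genes of the pathway went both ways around a median of -0.36: Hmox1, Osgin1, Txnip and Mafk were at least 8.08-fold higher, and Sod3 and Blvrb were at least 4-fold lower. Of the 50 measured, 28 were below 0 (25 under quantile normalization), beside 59.9% of all genes.

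Intensities are given here as multiples of the 75th percentile of their own array, which was an intensity of 741 for MHs and 1110 for Sox9+EpCAM- cells. A difference is log2 of the scaled value in Sox9+EpCAM- cells minus that in MHs, so -1 is a halving. Where a gene had several probes, the brightest over both arrays stood for it. A probe well above background on 1 array only has a bound, set against the lowest intensity well above background on the other array (27.8 for MHs, 18.4 for Sox9+EpCAM- cells), and such a value is written "at least". Levels of a gene are compared between arrays for the same probe, and the sums over marker lists, which add different probes, are given only as totals of each array.

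Both samples gave a signal well above background for 38 of the 44 genes. Mgst2, Gpx3 and Gsto2 had such a signal in Sox9+EpCAM- cells only, and Gpx5, Gpx7 and Gstt4 had it in neither sample. At a 4-fold rule of size, 2 of the 41 genes with a difference or bound were higher in Sox9+EpCAM- cells (4.88%, beside 5.98% of all 21875 genes with one) and 4 were lower (9.76%, beside 5.96%). At 2-fold, 3 were higher (15.2% of all genes were) and 16 lower (17.9% of all genes were). The median difference over the 38 measured genes was -0.81, with quartiles of -1.36 and -0.25, and over all 19232 genes measured on both arrays it was -0.19, with quartiles of -0.74 and 0.39. Of the measured members 84.2% (32 of 38) were lower, beside 59.9% of all genes, and the 32 became 27 under scaling to Gapdh and 25 under quantile normalization. Of the measured members, 52.6% lay within 2-fold, beside 70.8% of all genes. These shares describe 2 arrays and were not tested. RNA of a sorted population is an average over its cells, so fewer cells with a transcript and less of it per cell cannot be told apart.

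**Figure D1:**
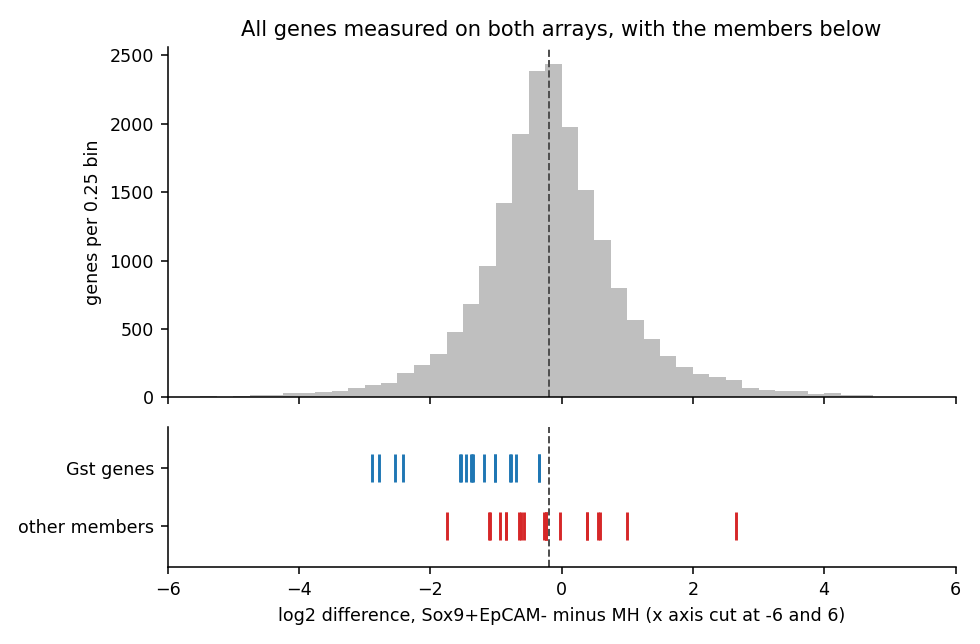
The upper panel counts all 19232 genes measured on both arrays in bins of 0.25 of the log2 difference (Sox9+EpCAM- minus MH), with a dashed line at their median of -0.19. Each tick below is 1 member: the 18 Gst genes (blue) all lie left of that line, and the 20 other measured members (red) spread over both sides of it.

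The arrays differed in more than these genes. Of 43020 spots, MHs gave 27523 well above background and Sox9+EpCAM- cells 32158, with 0 saturated spots, and both arrays lay on 1 slide read in 1 scan. All 10 hepatocyte markers were well above background in both samples and lower in Sox9+EpCAM- cells (9 under scaling to Gapdh, 8 under quantile normalization), from -0.23 for Hnf4a to -8.58 for Cyp3a11, with a summed level of 1184 in MHs and 488 in Sox9+EpCAM- cells. Sox9 itself was above background in Sox9+EpCAM- cells only, and Epcam, the marker the sort selected against, was 13.3-fold higher there. The summed level of 8 cholangiocyte markers (7 well above background in Sox9+EpCAM- cells) was 2.28 in MHs and 48.9 in Sox9+EpCAM- cells, and the markers went both ways. Spp1 went from 0.348 to 42.3, Krt7 was 1.18-fold lower, Cftr 2-fold lower, Krt19 1.33-fold higher, and Tspan8 was not above background on either array. The sum over 8 fibroblast and stellate cell markers (all 8 above background in Sox9+EpCAM- cells) was 12.1 and 54.2. Dcn went from 10.9 to 13.5, and 6 of the 8 were at least 4-fold higher, with a median of 3.95 over the 5 measured. Those of 6 leukocyte and 5 endothelial markers were 31.3 and 14.5, and 5.90 and 1.98, and of 3 erythroid markers 2 were at least 4-fold lower. The sex in the label of the MH array went against its values: Xist, the RNA of the silenced X chromosome, was above background in the library labelled MH only, and 4 of 4 Y-linked genes in the library labelled Sox9+EpCAM- only. Of 7 genes known as female-biased in mouse liver, 6 differed by at least 4-fold and were higher in the library labelled MH. Of 6 male-biased genes with a difference, among them the member Gstp1, none was 4-fold different. All 8 early response genes, known to rise when cells are stressed during isolation, were at least 4-fold higher, with a median difference of 4.58. The part of the other cell types, of the sexes and of isolation in the values below was not tested.

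**Figure D2:**
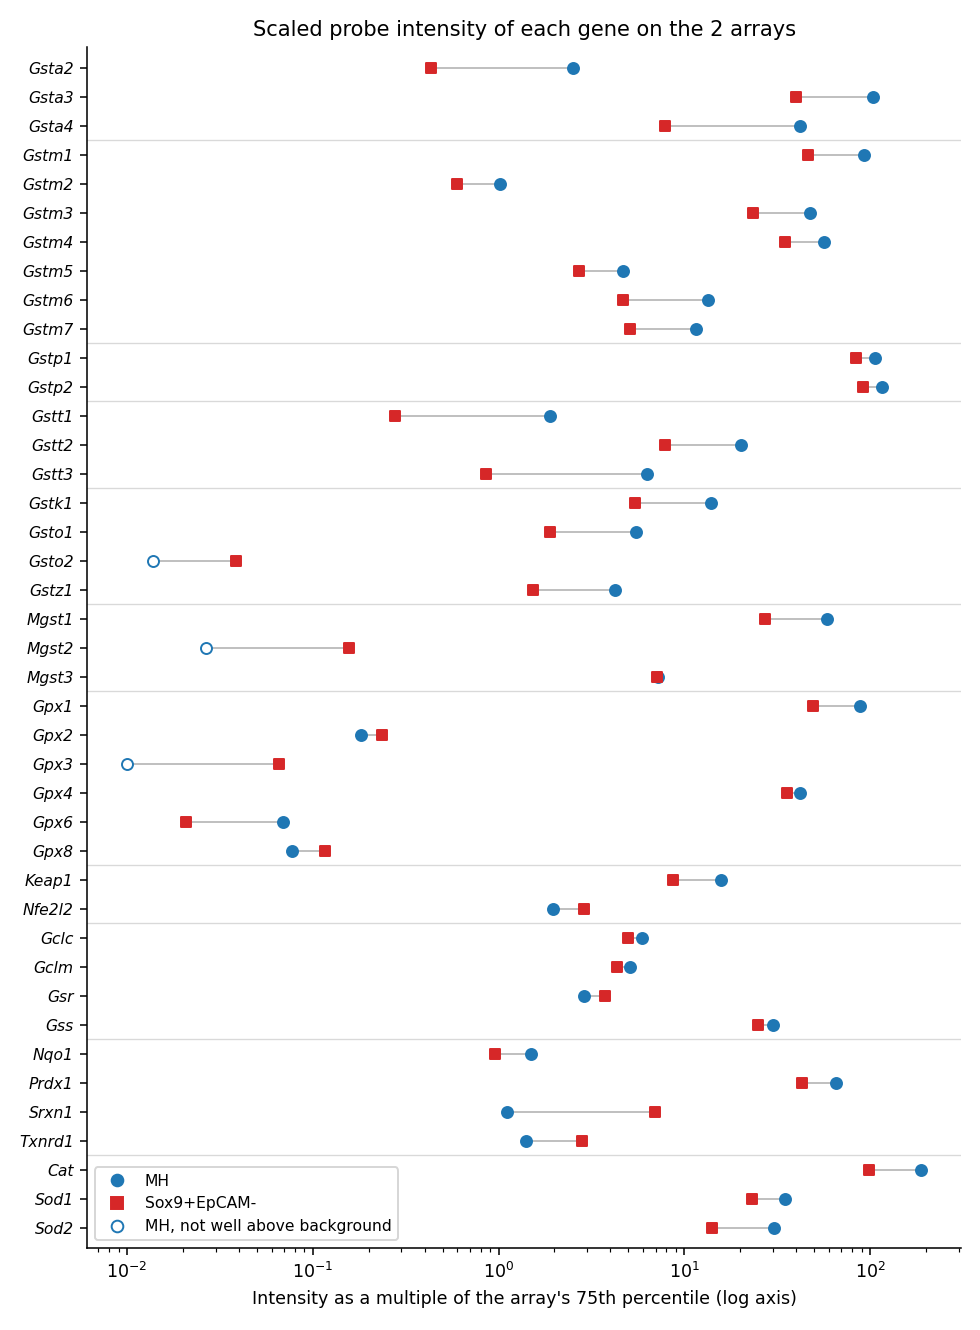
Each row is 1 of the 41 genes with a difference or bound, grouped by class. The x axis, on a log scale, is the intensity of its probe as a multiple of the 75th percentile of the array, with a circle for MHs and a square for Sox9+EpCAM- cells; positions compare within a row only. Open circles are Gsto2, Mgst2 and Gpx3, whose probes were not well above background in MHs.

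The alpha class, which handles products of lipid peroxidation, was lower throughout. Gsta4, known for detoxifying hydroxynonenal, lay at 41.9 in MHs and 7.90 in Sox9+EpCAM- cells, a 5.31-fold difference. Its probe was printed in 10 spots on each array, at mm9 chr9:78046172-78047344 on the plus strand, and the span exceeds 60 bases, so the probe crosses an exon junction. The 10 spots ran from 40.5 to 43.6 in MHs and from 7.52 to 8.38 in Sox9+EpCAM- cells and did not overlap, and the difference of -2.41 had a standard error over spots of 0.016, which covers the printing and reading of 1 array and not the mice. The sequence of this probe is shown because Gsta4 is the member with the best measured difference.
Gsta4: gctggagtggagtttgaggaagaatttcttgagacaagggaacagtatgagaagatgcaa

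Gsta2 went from 2.51 to 0.434, which was 5.78-fold lower. Its probe (mm9 chr9:78178856-78178915, minus strand) holds 30 bases in a row that also stand in a probe of Gm10639, so its signal may hold both transcripts, and the shared run is shown for that reason.
Gsta2: gtttgcaattataaaatacaattgttgatt
The 2 probes of Gm10639, looked up after the shared run was seen, had differences of -2.19 and -1.77, also lower in Sox9+EpCAM- cells. Gsta3 was the least changed of the class, from 104 to 39.8 on one probe (-1.38), and its other probe gave -1.63.

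**Figure D3:**
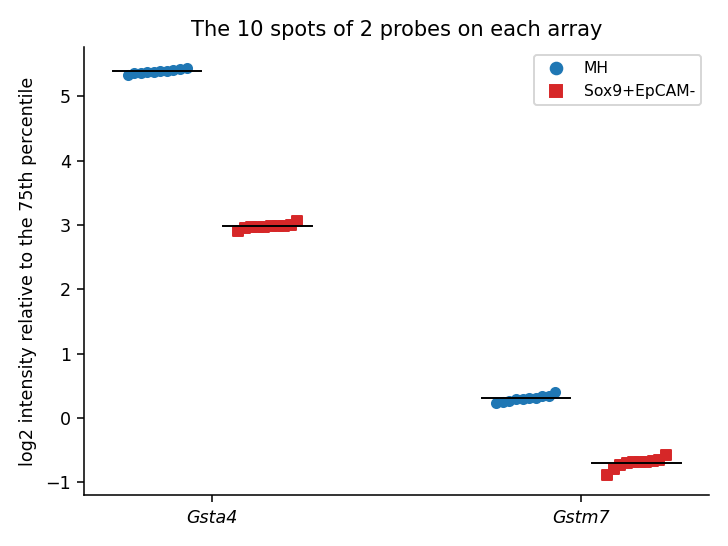
Points are the 10 spots of 1 probe of Gsta4 and 1 probe of Gstm7 on each array, as log2 of the intensity relative to the 75th percentile, and black lines are their means. For both genes all spots of the MH array (circles) lie above all spots of the Sox9+EpCAM- array (squares).

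On the probes that stood for the genes, the theta class held the pair with the lowest differences, Gstt3 and Gstt1. Gstt3 went from 6.28 in MHs to 0.851 in Sox9+EpCAM- cells, 7.37-fold lower, and 1.74% of all genes measured on both arrays had a lower difference. Gstt2 was 2.55-fold lower, from 20.1 to 7.88, and Gstt4 was not well above background in either sample. Gstt1 gave different answers from its 2 probes. The probe listed under its RefSeq transcript (mm9 chr10:75246560-75246619, minus strand) went from 1.90 to 0.277, 6.86-fold lower. The probe listed under an Ensembl transcript (mm9 chr10:75259864-75259923, minus strand) lies 13304 bases upstream on the strand and went the other way, from 0.103 to 0.224 (1.13). Under the median of both probes Gstt1 was at -0.83 and no longer 4-fold lower. The first 30 bases of each probe are shown because the direction of Gstt1 turns on them, and they are unlike each other.
Gstt1 RefSeq transcript: actataatcactactttccccttgagtctg
Gstt1 Ensembl transcript: tatcagagacccccagtgttctcctccctc

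The mu class was lower in all 7 genes, with a median of -1.01, and none reached 4-fold on the probe that stood for it. Gstm1, a major hepatic transferase, went from 93.3 to 46.3 (2.01-fold lower). Gstm6 went from 13.5 to 4.68 (2.88-fold lower), Gstm7 from 11.6 to 5.12 (2.26-fold lower), and Gstm3 from 47.4 to 23.4 (2.02-fold lower). Gstm2, Gstm4 and Gstm5 were between 1.62-fold and 1.72-fold lower. These genes lie side by side on chromosome 3 and are alike in sequence. The probes of Gstm3, Gstm6 and Gstm7 are shown because they read the same stretch of 3 paralogous transcripts. Capitals mark the 32 bases, of 55 that the probes have in common, at which all 3 are identical, and no run of 20 bases of any mu probe recurred in a probe for another gene.
Gstm3: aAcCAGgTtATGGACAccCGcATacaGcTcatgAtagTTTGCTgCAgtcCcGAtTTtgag
Gstm6: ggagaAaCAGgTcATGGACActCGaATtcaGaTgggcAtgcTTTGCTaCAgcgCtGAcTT
Gstm7: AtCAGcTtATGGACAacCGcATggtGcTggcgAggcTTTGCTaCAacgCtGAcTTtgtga
The probe of Gstm3 spans mm9 chr3:107769290-107770549, that of Gstm6 lies at chr3:107745052-107745111 and that of Gstm7 spans chr3:107732073-107733247, all on the minus strand.

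Several mu genes had probes that differed in size. The 3 probes of Gstm2 gave -2.27, -1.77 and -0.77, and the brightest of them differed least. The dimmer probe of Gstm4 gave -0.11, against -0.69 on the bright one. In Gstm3, as in Gstm2, the bright probe differed least, since its dim probe went from 0.646 to 0.0937 (-2.79) and its bright probe gave -1.02. In Gstm6 the 3 probes listed under the RefSeq transcript gave -1.29, -1.66 and -1.52, whereas the 2 listed under Ensembl transcripts were slightly higher, at 0.10 and 0.29. A second Gstm1 probe, which the design places on chromosome 5 and not beside the gene on chromosome 3, gave -1.30. Over all 14 members with several probes in use, the median range between the probes of a gene was 0.38 on the log2 scale, 8 genes stayed within 1.5-fold, only Gstt1 exceeded 4-fold, and 3 genes (Gstt1, Gstm6 and Mgst3) had probes on both sides of 0.

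**Figure D4:**
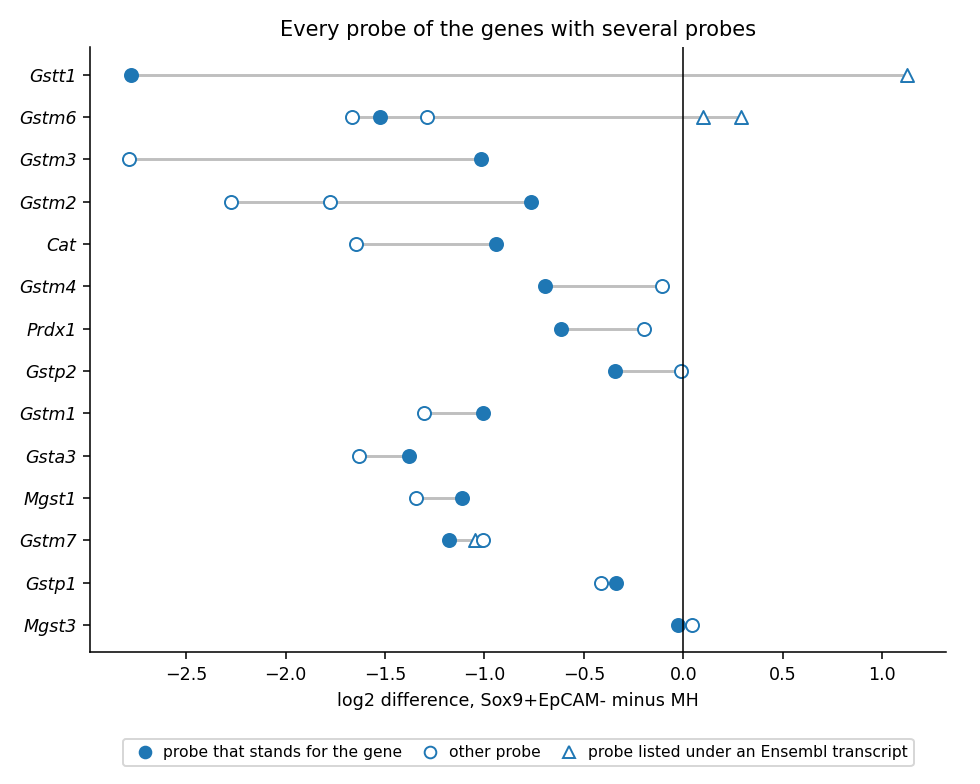
Each row is 1 of the 14 genes with several probes, and each symbol is 1 probe at its log2 difference (Sox9+EpCAM- minus MH). Filled symbols are the probes that stood for the gene and triangles are probes listed under an Ensembl transcript; 3 of the 4 triangles lie right of 0.

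The pi class differed from the other cytosolic classes in size. Gstp1, the transferase known to be higher in male than in female mouse liver, went from 106 in MHs to 83.8 in Sox9+EpCAM- cells (1.26-fold lower), and Gstp2 from 117 to 91.9 (1.27-fold lower). Both were higher, at 0.25 and 0.26, when the arrays were quantile normalized, so their direction depends on the scaling. The second probes gave -0.42 for Gstp1 and -0.01 for Gstp2. The 2 genes are near copies of each other on chromosome 19, and a probe of each is shown with capitals at the 30 bases that are identical over the 35 they have in common.
Gstp1: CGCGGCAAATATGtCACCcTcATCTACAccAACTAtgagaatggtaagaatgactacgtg
Gstp2: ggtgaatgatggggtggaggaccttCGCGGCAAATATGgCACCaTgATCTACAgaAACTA
The Gstp1 probe spans mm9 chr19:4035908-4036723 and gave the -0.42, and the Gstp2 probe lies at chr19:4040983-4041042 and gave the -0.34, both on the minus strand. With so few bases between the 2 transcripts, their values may not be independent.

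Among the remaining soluble classes, Gsto1 went from 5.52 to 1.89 (2.92-fold lower), Gstz1, which also serves tyrosine breakdown, from 4.24 to 1.54 (2.75-fold lower), and the mitochondrial Gstk1 from 13.9 to 5.40 (2.58-fold lower). Gsto2 was well above background in Sox9+EpCAM- cells only and was at least 1.02-fold higher, which gives it no clear direction. The microsomal transferases are membrane proteins of another family, and they split. Mgst1, abundant in liver, went from 58.6 to 27.1 (2.16-fold lower), while Mgst3 was at 7.25 and 7.10, with probes at -0.03 and 0.04, and above 0 under quantile normalization (0.28) and scaling to Gapdh (0.24). Mgst2, which can also make leukotrienes, had an intensity of 19.7 in MHs, not well above background, and 173 in Sox9+EpCAM- cells. It was at least 4.15-fold higher with this bound, and below 4-fold under normexp background correction (0.78), quantile normalization (1.85) and the deposited table (1.87). Its only probe (mm9 chr3:51486449-51486508, plus strand) is shown because it carries the one transferase that was 4-fold higher, and its last 3 bases, in capitals, are a stop codon in the reading frame of its first base.
Mgst2: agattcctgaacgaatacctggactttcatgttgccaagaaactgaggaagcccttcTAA

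**Figure D5:**
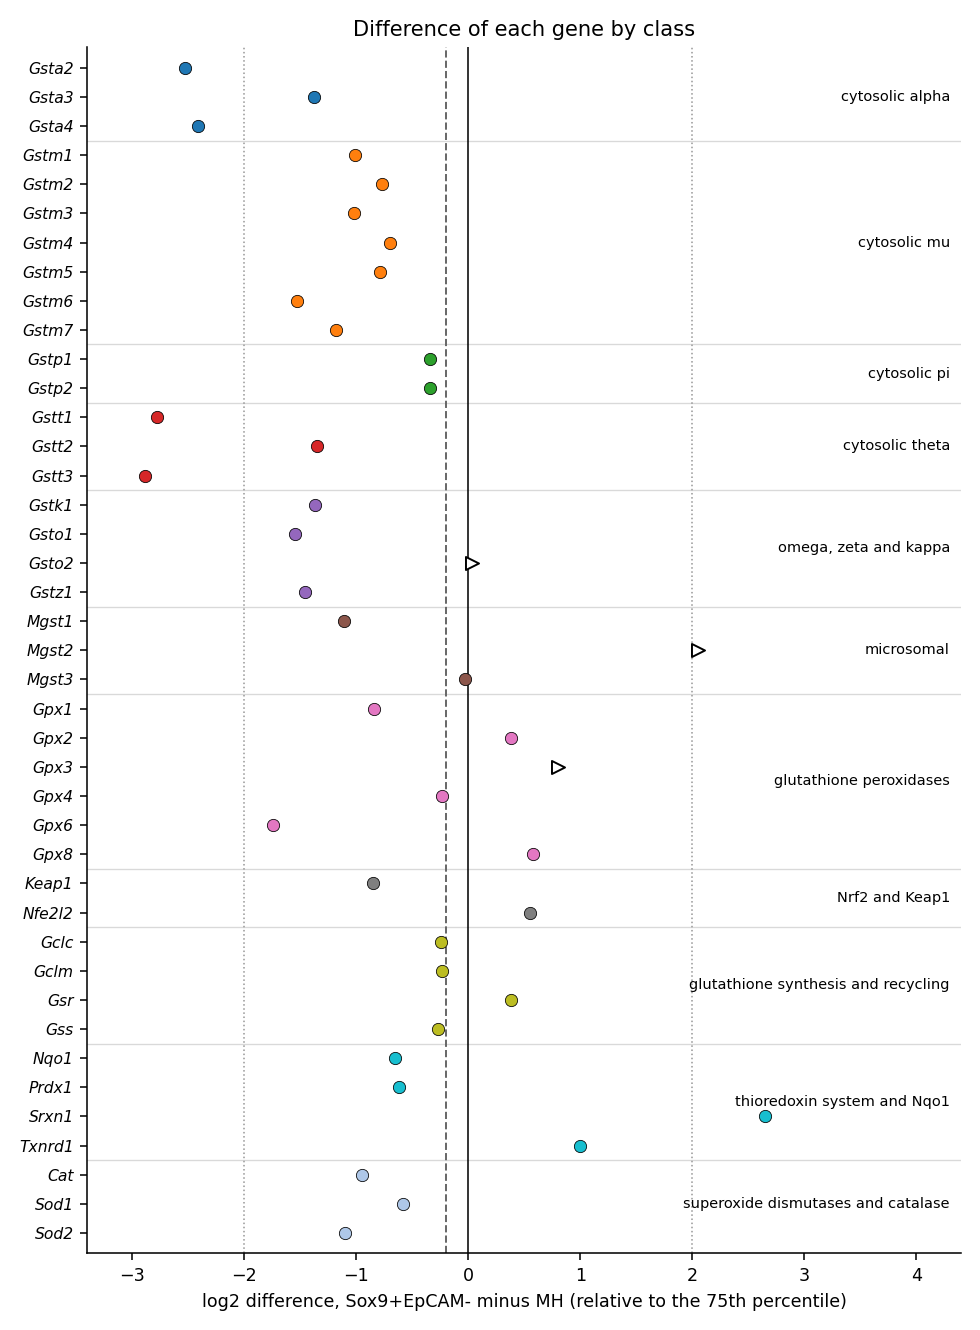
Each point is the log2 difference of 1 gene (Sox9+EpCAM- minus MH), coloured by class, and open triangles are lower bounds. The dashed line is the median of all genes (-0.19), and the dotted lines mark 4-fold. The alpha and theta classes lie farthest left, and Srxn1 lies farthest right.

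The glutathione peroxidases, which reduce hydrogen peroxide and lipid peroxides, showed no common direction under any scaling. Gpx1, the main cytosolic peroxidase, went from 88.1 to 49.1 (1.79-fold lower) and Gpx4, which protects membrane lipids, from 42.0 to 35.6 (1.18-fold lower), the latter above 0 under quantile normalization (0.27). Gpx6 was 3.35-fold lower, from 0.0694 to 0.0207, near the lowest level that could be measured on either array, and under normexp correction it moved to -0.91. Gpx2 went from 0.181 to 0.236 (0.38) and Gpx8 from 0.0777 to 0.116 (0.58). Gpx3, the plasma peroxidase, was at least 1.75-fold higher, its probe not being above background in MHs.

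Nfe2l2 and Keap1 themselves went in opposite directions. Nfe2l2 went from 1.97 in MHs to 2.88 in Sox9+EpCAM- cells (1.46-fold higher), and Keap1 from 15.8 to 8.74 (1.81-fold lower, and at -1.04 with the deposited table). Gclc and Gclm, the catalytic and modifier subunits of the enzyme that limits glutathione synthesis, were at -0.24 and -0.23, and Gss, which makes glutathione from their product, was at -0.26. All 3 values were close to the median of all genes. They were above 0 under quantile normalization (0.04 for Gclc and Gclm, 0.19 for Gss) and at or just above 0 under scaling to Gapdh. Gsr, which regenerates reduced glutathione, went from 2.87 to 3.76 (1.31-fold higher). Its second probe was marked as an outlier on the Sox9+EpCAM- array and was left out.

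Of Srxn1, Txnrd1 and Prdx1, which belong to the thioredoxin and peroxiredoxin system, the first was clearly higher and the next just reached 2-fold. Srxn1, which repairs overoxidised peroxiredoxins, went from 1.11 to 6.96. At 6.28-fold it was the highest of the members measured on both arrays, and 1.89% of all genes so measured had a higher difference. Gpx3, Mgst2 and Gsto2 have only lower bounds and cannot be ranked against it. Txnrd1, the cytosolic thioredoxin reductase, went from 1.40 to 2.81 (2-fold higher, and under 2-fold, at 0.83 and 0.99, with the deposited table and with scaling to the median). Prdx1, a peroxiredoxin that Srxn1 repairs, went from 65.9 to 43.0 (1.53-fold lower), with -0.20 on a dimmer probe. Nqo1, a quinone reductase often read as a marker of Nrf2, had unscaled intensities of 1110 and 1060 and was 1.57-fold lower after scaling. The superoxide dismutases and catalase, which are not all Nrf2 targets, were lower: Sod1 by 1.49-fold, Sod2 by 2.14-fold and Cat by 1.92-fold, with Cat going from 189 to 98.2 and at -1.64 on its other probe. The only Sod1 probe holds 37 bases in a row that also stand in a probe listed under another name, so its signal may not be of Sod1 alone.

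The wider pathway was read in a list of 59 genes outside the members, of which 57 were on the design and 55 had a difference or bound. At least 4-fold higher were 6 of the 55 (5.98% of all genes were) and 2 were at least 4-fold lower (5.96% of all genes were). The 6 became 4 under normexp, quantile normalization and the deposited table and 7 under scaling to Gapdh, and the 2 became 0 under normexp and 3 with the deposited table. At 2-fold the counts were 12 and 13 (15.2% and 17.9% of all genes), around a median of -0.36 over the 50 measured (0.02 under quantile normalization). Hmox1, the heme oxygenase, went from 1.92 in MHs to 44.5 in Sox9+EpCAM- cells (4.54). Osgin1, an Nrf2 target linked to growth inhibition, went from an unscaled intensity of 581 to 11100 (3.67), and Txnip, which binds and inhibits thioredoxin, from 2.87 to 35.0 (3.61). The small Maf gene Mafk, whose protein pairs with Nrf2 and with the repressor Bach1, went from 0.238 to 1.92 (3.01). The export pump gene Abcc4 was at least 4.32-fold higher and Chac1, which degrades glutathione, at least 4.15-fold higher, both not well above background in MHs. As with Mgst2, both bounds were below 4-fold under normexp (0.86 and 0.57), quantile normalization (1.91 and 1.85) and the deposited table (1.93 and 1.87). Lower were Sod3, the extracellular superoxide dismutase, from 0.169 to 0.0247 (-2.77), and Blvrb, a biliverdin reductase, from 0.394 to 0.0743 (-2.41), which were under 4-fold, at -1.65 and -1.78, with normexp.

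By group, the 7 partners and regulators of Nrf2 had a median of 0.52 over the 5 measured, with 1 gene at least 4-fold higher and none lower. The 21 known targets with a difference had a median of -0.35 over the 20 measured, with 3 higher and 1 lower at 4-fold, and the median was at 0.08 under quantile normalization and -0.09 under scaling to Gapdh. The 14 genes of glutathione supply and turnover had a median of -0.54 over the 13 measured (-0.04 under quantile normalization), with 1 higher, and the 13 other peroxidase and thioredoxin genes also -0.54, with 1 higher and 1 lower. The known targets of Nrf2, members included, did not share a direction: Hmox1, Osgin1, Srxn1 and Txnrd1 were higher, Gclc and Gclm were near the median of all genes, and Nqo1 and the alpha and mu transferases were lower. Fos and Jun, whose proteins form AP-1, were among the early response genes and went from 2.17 to 53.0 and from 18.6 to 105.

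Promoters from RefSeq (GRCm38.p6, windows of equal length around the start of transcription) were found for 40 of the 44 genes and were searched on both strands for the core of the antioxidant response element, TGACNNNGC, and for the AP-1 motif, TGANTCA. The first was in 12.4% of all 32851 promoters and in 10 of 54 promoters of the members (18.5%), and the second in 7.81% of all and in 6 of 54 (11.1%). The core occurred in genes of each direction: Srxn1, Txnrd1 and Nfe2l2 among the higher, and Gclm, Gsta3, Gstm5, Gstm7, Mgst1, Prdx1 and Sod1 among those below 0, with Gclm near the median of all genes. The AP-1 motif also occurred in genes of each direction: Srxn1 and Mgst2 among the higher, and Gstm5, Gstp1, Gstp2 and Prdx1 among those below 0. In Prdx1 one match overlaps the core on the other strand. Stretches around matches are shown for 3 of the higher members (Srxn1, Mgst2 and Txnrd1) and for 4 members below 0 (Prdx1, Gsta3, Gstp1 and Gstp2). Matched bases are in capitals, and the stretches are on the strand of the gene. The TGACNNNGC match of Srxn1 lies after the start, at position 29, outside the stretch shown. Only cores beginning TGAC were searched. The TGAGTCA matches of Srxn1, Gstp1 and Gstp2 were therefore counted as AP-1 motif alone, whatever bases follow them.
Srxn1 chr2:152105414-152105493 plus strand: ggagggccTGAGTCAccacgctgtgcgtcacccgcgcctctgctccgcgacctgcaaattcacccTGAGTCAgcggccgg
Mgst2 chr3:51661109-51661148 plus strand: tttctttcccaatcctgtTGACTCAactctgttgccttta
Txnrd1 chr10:82859096-82859135 plus strand: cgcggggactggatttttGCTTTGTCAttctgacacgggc
Prdx1 chr4:116685449-116685488 plus strand: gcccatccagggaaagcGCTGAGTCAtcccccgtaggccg
Gsta3 chr1:21240445-21240484 plus strand: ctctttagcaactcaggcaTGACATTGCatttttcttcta
Gstp1 chr19:4037963-4038002 minus strand: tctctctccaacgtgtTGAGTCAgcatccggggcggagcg
Gstp2 chr19:4042287-4042326 minus strand: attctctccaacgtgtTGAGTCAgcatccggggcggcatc
The AP-1 matches of Srxn1 begin at positions -102 and -45, counted in bases from the start, and that of Mgst2 at -52. Gstp1 and Gstp2 carry nearly the same stretch, with the motif at -74 and -89, and the differences of both genes were near that of all genes. In Txnrd1 and Prdx1 the core lies on the other strand, so it appears in reverse complement. The windows reach only a short way from the start, so a member without a match may have one farther away. A match of letters is a description of the promoter and says nothing of binding in these cells.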

How the data were processed

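The authors deposited, for each of 2 arrays, the spot intensity that Feature Extraction 10.7.3.1 computed after background subtraction, with no normalization between arrays, and a table of ratio values, each intensity divided by the median of its array. Members and lists were chosen with earlier results of these data known. From the deposited intensity, log2 values were taken relative to the 75th percentile of the array. Control spots and outlier spots were left out, spots of a probe were averaged, and the brightest probe stood for a gene. Where only 1 of the arrays gave a signal well above background, a bound was used. Genes were counted past 4-fold as a rule of size, since 1 array per group allows no test. Every member was named, as were genes of the pathway list outside the members that differed by at least 4-fold, and marker genes where a result turned on them. Probe positions are those of the design (mm9), which gives no exon, and no transcript table was used here. Precision was judged from repeated spots: the median SD over 272 probes with at least 8 spots was 0.08 on the log2 scale on the MH array, and 0.08 over 307 probes on the Sox9+EpCAM- array. Runs of 20 bases found in probes for different genes occurred in 2 member probes (Gsta2 and Sod1) and in 7.19% of all probes. Alternatives used limma 3.58.1 in R 4.3.3 (normexp, offset 50) and Python 3.11.15 (pandas 2.3.3, numpy 2.4.6). The procedure was tested on data simulated from the MH array alone, with known changes and noise added. That test did not cover differences in background or cell composition between the arrays.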

Additional observations from a re-analysis of the deposited data

How the results depend on the processing

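The count of members at least 4-fold higher, 2 (Srxn1 and Mgst2), fell to 1 (Srxn1) under normexp background correction, quantile normalization, the deposited table and when only genes above background on both arrays were counted, where Mgst2 was below 4-fold or had no measured value, and was 3 (Gpx3 added) with plain differences without the bound. The count at least 4-fold lower, 4, was 3 without probes that share 20 bases with another gene's probe (Gsta2 left out), with the median of all probes (Gstt1 at -0.83) and under quantile normalization (Gsta4 at -1.96), and 6 with the probe of largest difference (Gstm2 and Gstm3 added). At 2-fold the counts were 3 higher and 16 lower, and at 10-fold 0 and 0. The median over the members ran from -0.99 to -0.48 over the 11 processing alternatives. Scaling to Gapdh moved the median of all genes by 0.27 (4-fold counts of all genes 1650 higher and 1006 lower, against 1309 and 1304) and the deposited table by -0.18. The members' median minus that of all genes, -0.62, cannot move under such a rescaling, and was -0.48 under normexp and -0.37 under quantile normalization, where 16 of 18 Gst genes were lower. Of 442 values of single members under these alternatives, 12 moved by over 1.5-fold and 0 changes of sign occurred among genes at least 4-fold different. Many of the 442 could not move that far. The 38 values of genes above background on both arrays repeat the main ones. Scaling to the median, scaling to Gapdh and the deposited table shift all genes almost alike, by under 1.5-fold. Smaller differences, such as those of Gstp1 and Gclc, did change sign under quantile normalization. Causes were not tested. No paired analysis was possible because there was 1 array a group, and for the same reason no replicate could be left out and no block could be fitted for the slide. The 3 members below background on both arrays have no value at this signal.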
